A study of Prunus avium with 18 samples.

Results

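Callose synthases are the enzymes that make callose, and 31 of the 48,133 annotated genes of the sweet cherry 'Regina' genome carry a callose synthase (CALS) or glucan synthase-like (GSL) name in the study's table of transport candidates. All 31 were taken, 10 with a CALS name and 21 with a GSL name, of which 10 are GSL-like. The name GSL-like3 is given to 2 genes, which are told apart here by chromosome (PAV04g0205821 on chromosome 4 and PAV05g0251361 on chromosome 5). Of the 31 identifiers, 29 matched the count files exactly and 2 on unplaced contigs (CALS_5A and CALS_5B) by their trailing number.

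Callose is a polymer of glucose (a β-1,3-glucan) that plants lay down and remove again. At the necks of plasmodesmata, the channels between neighbouring plant cells, it narrows the passage, and on sieve plates it closes the pores of the phloem. It is also part of the cell plate of dividing cells and of the walls around pollen mother cells and pollen tubes, and in tree buds it is known for blocking cell-to-cell transport during winter dormancy. Callose synthases are large membrane proteins that build it from UDP-glucose, and β-1,3-glucanases, many of them of glycoside hydrolase family 17 (GH17), break it down.

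RNA was sequenced from whole flower buds of 'Fertard', a late flowering cultivar, with 3 libraries per date at 6 dates, each library of a date being buds of another tree. October 17 precedes the 4 dates that the study places in endodormancy (December, both January dates and February 12), and the study labels March 12 as ecodormancy, the stage at which buds are held back by cold alone. Its own bud break tests dated the release from dormancy in that season later than this last sampling, so endodormancy is used here as the study's name for the 4 dates. No treatment or second genotype was included, so date is the only factor. The December libraries are labelled December 17, 2012, whereas the series' design text gives December 8 in a run of dates from 2017 to 2018, and they are called December here.

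The 18 libraries held between 10,095,600 and 21,023,379 counts. Levels are given as CPM (counts scaled to library size, after correction by the trimmed mean of M-values, TMM), which compare dates for a gene but not genes with each other, because they are not divided by gene length. Values with ± are the mean and SD of the 3 libraries of a date unless marked SE. A gene was called when edgeR's quasi-likelihood test gave a Benjamini-Hochberg adjusted p under 0.05 and the log2 fold change exceeded 1 in size. Callose synthase genes ran low in some libraries. Replicate 1 of March 12 was the lowest of its date in 21 of the 26 members tested (median deviation from the date mean -0.26 on the log2 scale, 0.00773 over all genes), and replicate 2 of December in 18 of 26 (-0.21, 0.0125 over all genes). Replicate 1 of October 17 (-0.10, 0.00137 over all genes) and replicate 1 of January 15 (-0.11, 0.00485 over all genes) were each the lowest in 17 of 26. The tissue label could not be checked against marker genes, since gene names were at hand only for the transport candidates.

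Callose synthase genes mostly changed by less than 2-fold over the winter. Of the 26 members with enough counts to be tested, 7 (26.9%) were called in 1 or more of the 15 date pairs, against 54.3% of the 26,248 genes tested. These were CALS_1B, CALS_5D, CALS_5F, GSL_3, GSL_7A, GSL_8 and GSL_10C. The highest date mean of a member was 1.2 to 3.42 times its lowest, with a median of 1.76, against a median of 2.17 over all genes. A ratio over 2 was found for 9 members (34.6%), against 56.6% of all genes when those with a date at 0 are included. All genes were not matched to the members for count level, on which such ratios and calls depend. By adjusted p alone, with no minimum fold, 24 members (92.3%) differed between some pair of dates, close to the 93.0% of all genes.

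January 3 was often the highest date of a member, and February 12 the lowest. The highest date was January 3 in 14 of 26 members (53.8%), against 19.8% of all genes, and the lowest was February 12 in 10 (38.5%), against 15.9% of all genes. March 12 was the lowest date of 7 more members (26.9%), close to the 24.8% of all genes. Some of the January 3 maxima were narrow, and replicate 2 of December ran low. GSL-like2, for example, averaged 255 CPM on January 3 and 254 CPM in December. In GSL-like2, GSL_10D and CALS_1B, replicates 1 and 3 of December lay above the January 3 mean. Many members highest on January 3 are neighbouring genes on chromosomes 3 and 5. Such neighbours are not independent of each other. In bulk tissue, fewer cells that express a gene and less of its RNA per cell cannot be told apart.

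**Figure D1:**
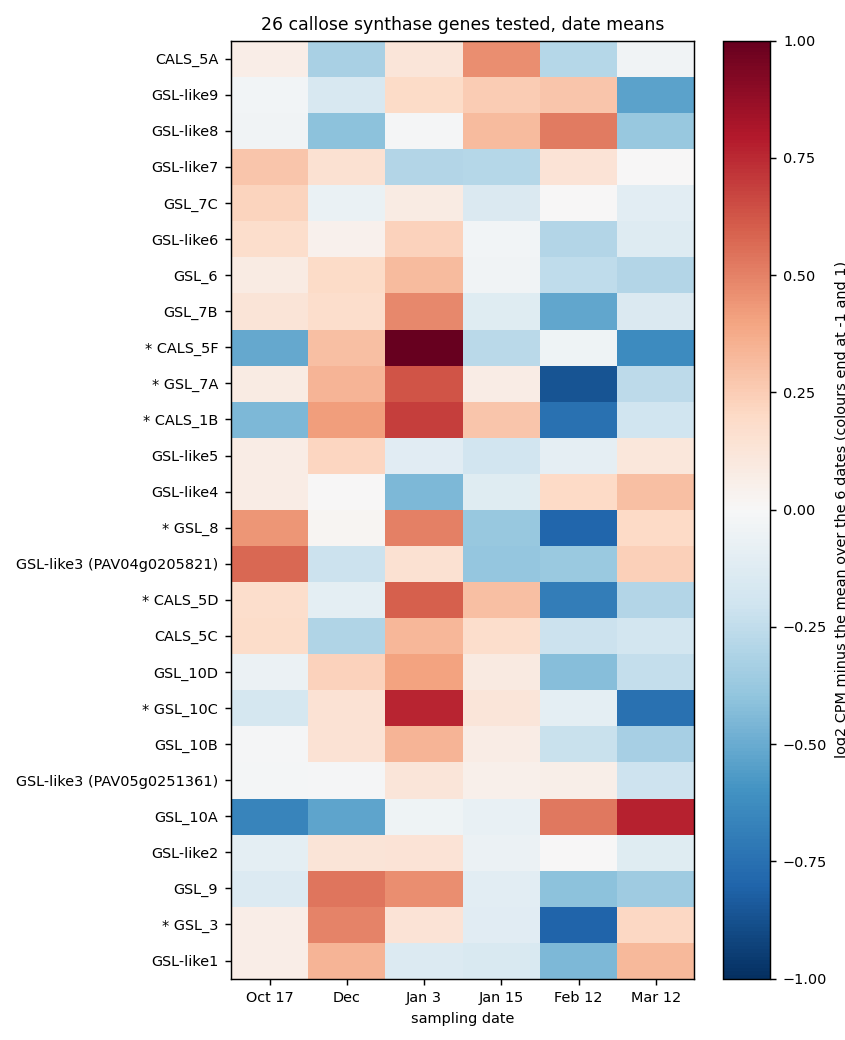
Date means of the 26 callose synthase genes tested, as log2 CPM minus the mean of the 6 dates, with colours ending at -1 and 1. Genes are ordered by place in the genome, an asterisk marks the 7 called genes, and red cells gather on January 3 (highest date of 14 genes) while blue cells gather on February 12 (lowest date of 10).

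February 12 against January 3 was the pair with the most calls among members. CALS_1B, CALS_5D, GSL_7A and GSL_8 fell, 4 of 26 (15.4%) against 6.12% of all genes, and no member rose past the threshold by edgeR or DESeq2, against 9.9% of all genes. By adjusted p alone 15 members (57.7%) were lower, against 24.6% of all genes. The 3 higher members were GSL-like4, GSL-like7 and GSL-like8, against 24.9% of all genes. Many of the members lower here, GSL_7A and CALS_1B among them, are neighbouring genes and so not independent of each other. The median log2 fold change was -0.53 over members and 0.02 over all genes. Without replicate 2 of January 3 the number of members called lower was 7, including GSL_7B (log2 fold change -1.08) and GSL_9 (-1.05).

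**Figure D2:**
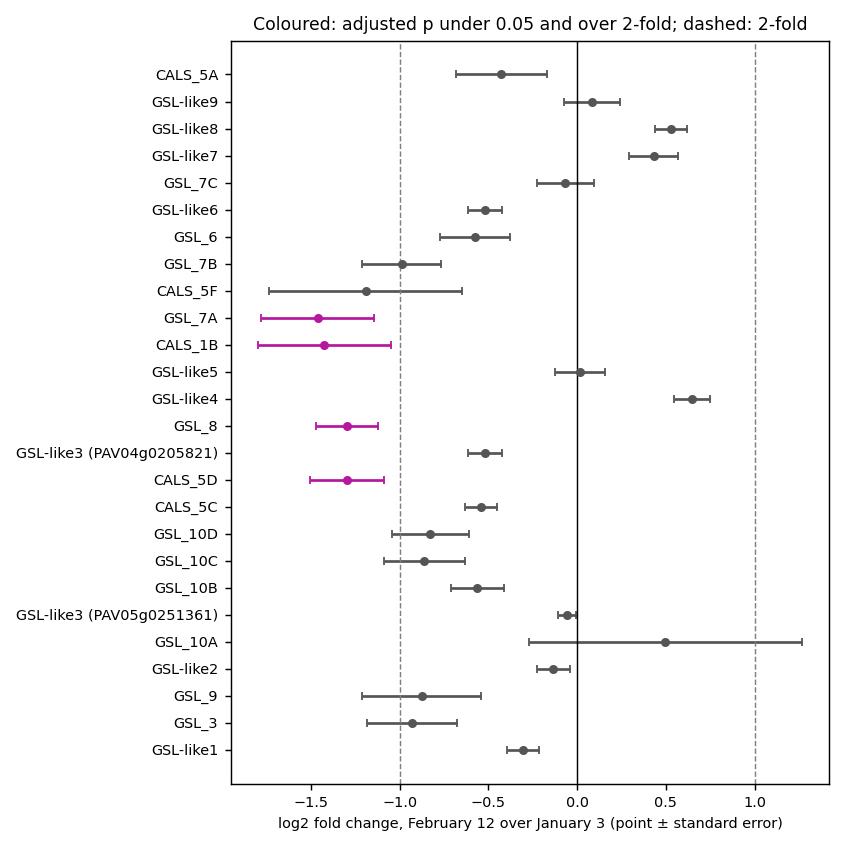
Log2 fold change of February 12 over January 3 (x axis, points with standard error bars) for the 26 callose synthase genes tested, with dashed lines at a 2-fold change. The 4 coloured genes, CALS_1B, CALS_5D, GSL_7A and GSL_8, lie between -1.30 and -1.46, and GSL-like4, GSL-like7 and GSL-like8 lie to the right of 0 by more than 2 standard errors.

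GSL_8 (PAV04g0205811) was called in 2 pairs of dates. The candidate table pairs it with Arabidopsis GSL4, also called CalS8, which in Arabidopsis takes part in plasmodesmal callose. Its level was 7.18, 8.16 and 7.92 CPM on October 17, 5.76, 5.15 and 6.40 CPM in December, and 8.15, 7.86 and 8.21 CPM on January 3. It was 3.47, 5.14 and 4.54 CPM on January 15, 3.09, 3.50 and 3.30 CPM on February 12, and 5.11, 7.71 and 6.79 CPM on March 12. All 3 libraries of February 12 lay below every library of October 17, December, January 3 and March 12. GSL_8 fell to 3.30 ± 0.208 CPM on February 12, against 8.08 ± 0.186 CPM on January 3 (SD, n = 3 each; edgeR, log2 fold change -1.30 ± 0.17 SE, adjusted p = 9.64e-06) and 7.75 ± 0.512 CPM on October 17 (-1.24 ± 0.17 SE, adjusted p = 1.23e-05). The level on March 12 was higher than on February 12 by adjusted p (log2 fold change 0.99 ± 0.18 SE, adjusted p = 1.33e-04), just under 2-fold. Both GSL_8 calls held in each of the 30 alternatives tried.

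The gene next to GSL_8, GSL-like3 of chromosome 4, is paired with the same Arabidopsis gene. It averaged 60.3 ± 0.736 CPM on October 17, 35.0 ± 1.74 in December, 45.1 ± 3.53 (January 3), 31.02 ± 3.02 (January 15), 31.4 ± 3.68 (February 12) and 47.9 ± 3.12 on March 12. It shared with GSL_8 the dip in December, the higher level on January 3 and the low levels of January 15 and February 12. It had the smallest adjusted p of any member when the mean over endodormancy was set against that of October 17 and March 12, yet the difference was under 2-fold (log2 fold change -0.61 ± 0.06 SE, edgeR's adjusted p = 2.80e-08).

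CALS_1B (PAV03g0164981) was called in 4 pairs of dates, more than any other member. Its Arabidopsis counterpart in the table, callose synthase 1, works at the cell plate and at plasmodesmata. CALS_1B had 1.56, 2.57 and 1.42 CPM on October 17, 4.45, 1.47 and 4.24 CPM in December, and 3.82, 2.86 and 5.59 CPM on January 3. It had 2.53, 3.35 and 3.34 CPM on January 15, 1.51, 1.75 and 1.26 CPM on February 12, and 1.46, 2.54 and 2.62 CPM on March 12. The January 3 libraries lay above those of October 17 and February 12 without overlap, while replicate 2 of December lay among the libraries of October 17 and February 12. CALS_1B rose to 4.09 ± 1.39 CPM on January 3, against 1.85 ± 0.628 CPM on October 17 (edgeR, log2 fold change 1.11 ± 0.36 SE, adjusted p = 0.0152), and fell to 1.51 ± 0.245 CPM on February 12 (against January 3, log2 fold change -1.42 ± 0.37 SE, adjusted p = 0.00418). It was also lower on February 12 than in December (log2 fold change -1.18 ± 0.38 SE, edgeR's adjusted p = 0.0170) and than on January 15 (-1.02 ± 0.38 SE, edgeR's adjusted p = 0.0388). With 13 to 71 counts per library, the rise to January 3 did not survive leaving out replicate 1 (log2 fold change 1.02) or 3 (0.94) of October 17 or replicate 3 of January 3 (0.84). The difference from December was lost without replicate 1 (-0.91) or 3 (-1.01) of December, in a fit on the compared dates alone (-1.16, adjusted p = 0.0501) and without the 3 libraries of lowest mapping share (-1.05, adjusted p = 0.0954), and that from January 15 without replicate 2 (-0.94) or 3 (-0.96) of January 15 or replicate 1 (-1.02), 2 (-1.12) or 3 (-0.91) of February 12. The difference from January 3 held in every alternative.

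**Figure D3:**
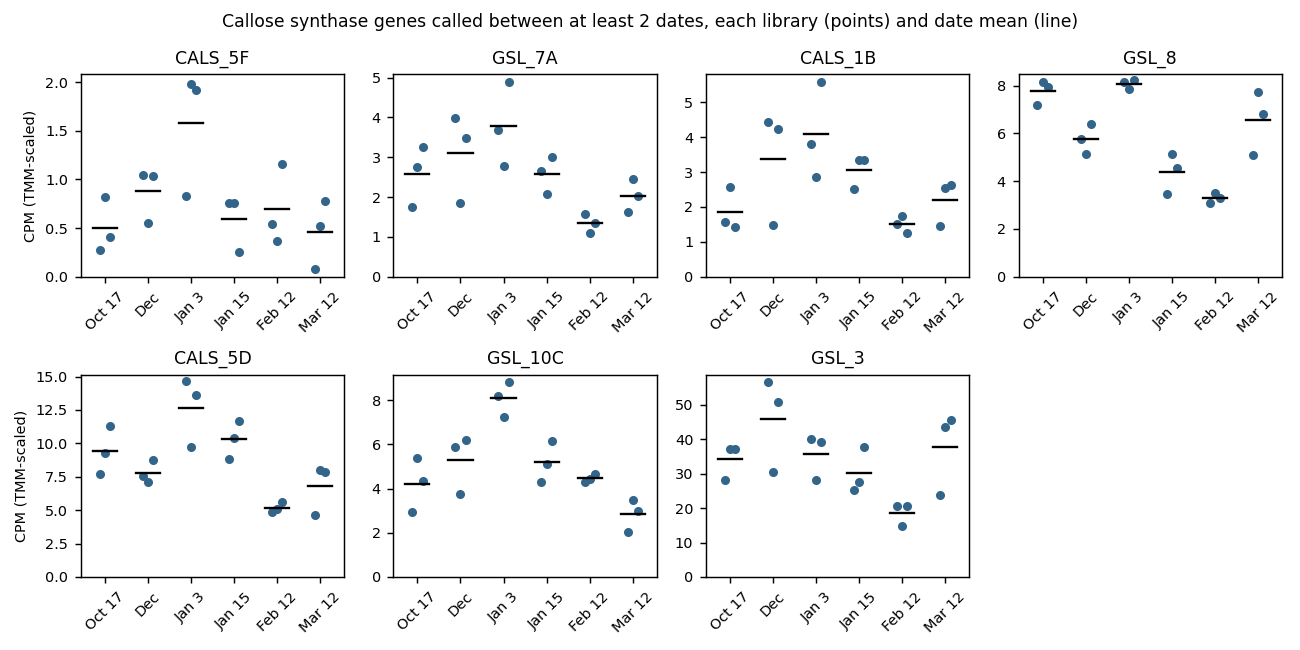
CPM of the 7 called callose synthase genes in each of the 18 libraries (points) with date means (lines), each panel on its own axis from 0. GSL_8 and CALS_5D lie low on February 12 in all 3 libraries, and replicate 1 of March 12 and replicate 2 of December are often the low points of their dates.

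The GSL_3 group, paired with Arabidopsis GSL12 (CalS3), a synthase of plasmodesmal callose, held members of opposite course. GSL_3 (PAV06g0263991) and its neighbour GSL-like1 were lowest on February 12, and GSL-like8 on chromosome 2 was highest then. GSL_3 had 28.1, 37.3 and 37.3 CPM on October 17, 56.7, 30.6 and 50.8 CPM in December, and 40.0, 28.04 and 39.3 CPM on January 3. It had 25.1, 27.6 and 37.7 CPM on January 15, 20.6, 14.9 and 20.6 CPM on February 12, and 23.8, 43.7 and 45.5 CPM on March 12. The February 12 libraries lay below every other library of this gene. GSL_3 fell to 18.7 ± 3.27 CPM on February 12, against 46.0 ± 13.7 CPM in December (edgeR, log2 fold change -1.30 ± 0.25 SE, adjusted p = 4.12e-04), a call that held in every alternative that kept December. It rose again to 37.7 ± 12.1 CPM on March 12 (against February 12, log2 fold change 1.00 ± 0.26 SE, edgeR's adjusted p = 0.00279), on the very edge of the 2-fold threshold. That call was lost with DESeq2 (log2 fold change 0.99) and without replicate 2 of February 12 (0.86), 2 (0.88) or 3 (0.84) of March 12, 1 (1.00) or 3 (1.00) of January 3, or 1 (1.00) or 2 (1.00) of January 15. It was also lost without the 3 libraries of lowest mapping share (0.85).

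GSL-like1 took 19.9% of all reads of the callose synthase genes. It averaged 373 ± 13.0 CPM on October 17, 453 ± 7.78 in December, 324 ± 21.7 (January 3), 322 ± 22.5 (January 15), 262 ± 25.0 (February 12) and 448 ± 53.0 on March 12. GSL-like8 ran the other way from December on, with 190 ± 2.70 CPM on October 17, 147 ± 13.6 in December, 193 ± 18.9 (January 3), 242 ± 25.8 (January 15), 279 ± 24.3 (February 12) and 150 ± 1.97 on March 12. Between February 12 and March 12 GSL-like1 was higher on March 12 (edgeR, log2 fold change 0.77 ± 0.09 SE, adjusted p = 7.84e-07) and GSL-like8 lower (-0.90 ± 0.09 SE, edgeR's adjusted p = 1.53e-07). Between December and February 12 the signs were the opposite, -0.79 for GSL-like1 and 0.93 for GSL-like8 (standard error 0.09 each). None of these 4 differences reached 2-fold with all libraries, and without replicate 2 of December GSL-like8 did so on February 12 against December (log2 fold change 1.01).

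GSL-like9, which lies beside GSL-like8 on chromosome 2 and is paired with Arabidopsis GSL3 (CalS2), followed it only in part. It was 309 ± 25.3 CPM on October 17, 281 ± 54.1 in December, 360 ± 33.2 on January 3, 374 ± 51.1 (January 15) and 381 ± 23.3 (February 12), and lowest at 218 ± 53.7 CPM on March 12. Its level on March 12 was lower than on February 12 by adjusted p (edgeR, log2 fold change -0.81 ± 0.16 SE, adjusted p = 3.16e-04), under 2-fold.

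The GSL_10 members and GSL-like3 of chromosome 5 are paired with Arabidopsis GSL8 (CalS10), which is needed for the cell plate and for plasmodesmal callose. GSL_10B, GSL_10C, GSL_10D and GSL-like3 lie side by side on chromosome 5, and all 4 had their highest mean on January 3. GSL_10C (PAV05g0251341) had 2.94, 5.40 and 4.33 CPM on October 17, 5.89, 3.77 and 6.21 CPM in December, and 8.21, 7.23 and 8.82 CPM on January 3. It had 4.29, 5.09 and 6.17 CPM on January 15, 4.30, 4.42 and 4.66 CPM on February 12, and 2.03, 3.50 and 3.01 CPM on March 12. The January 3 libraries were the 3 highest of all 18. GSL_10C fell to 2.85 ± 0.752 CPM on March 12, against 8.09 ± 0.805 CPM on January 3 (edgeR, log2 fold change -1.51 ± 0.24 SE, adjusted p = 2.45e-05), in every alternative. Its neighbours were lower in the same pair by less, with log2 fold changes of -0.68 for GSL_10B, -0.65 for GSL_10D and -0.33 for GSL-like3 (standard errors 0.15, 0.22 and 0.05). GSL-like3 was among the steadiest members, between 148 ± 6.71 CPM on March 12 and 185 ± 1.79 CPM on January 3. GSL_10A, which lies apart, had 0 to 7 counts per library and passed the adjusted p in no pair. With so few counts a change could be missed. March 12 against October 17 gave a log2 fold change of 1.44 ± 0.80 SE.

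GSL_7C and GSL-like6 are paired with Arabidopsis GSL7 (CalS7), the synthase of sieve plate callose in the phloem. Neither was called in any pair of dates. GSL-like6 ranged from 57.0 ± 5.09 CPM on February 12 to 81.9 ± 9.14 CPM on January 3 (edgeR, log2 fold change -0.52 ± 0.10 SE, adjusted p = 2.19e-04). GSL_7C stayed between 12.8 ± 1.39 CPM on January 15 and 16.5 ± 1.92 CPM on October 17, and no pair passed the adjusted p.

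The members paired with callose synthase 5, which in Arabidopsis makes the callose around developing pollen and in pollen tubes, numbered 7, and CALS_5D and CALS_5F among them were called. CALS_5D (PAV04g0225711) had 7.73, 9.29 and 11.3 CPM on October 17, 7.52, 7.09 and 8.76 CPM in December, and 14.6, 9.69 and 13.6 CPM on January 3. It had 8.84, 10.4 and 11.7 CPM on January 15, 4.84, 5.07 and 5.63 CPM on February 12, and 4.62, 7.97 and 7.86 CPM on March 12. The February 12 libraries lay below all libraries of the earlier dates, and replicate 1 of March 12 lay lower still. CALS_5D fell to 5.18 ± 0.403 CPM on February 12, against 12.7 ± 2.62 CPM on January 3 (edgeR, log2 fold change -1.30 ± 0.21 SE, adjusted p = 6.27e-05), in every alternative. Its neighbour CALS_5C was also lower in that pair, by less, with 47.8 ± 3.81 CPM on February 12 and 69.7 ± 10.2 CPM on January 3 (edgeR, log2 fold change -0.54 ± 0.09 SE, adjusted p = 9.91e-05).

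CALS_5F (PAV03g0164961) had the largest fold change of any called member and the fewest counts, 1 to 25 per library. It had 0.276, 0.816 and 0.406 CPM on October 17, 1.05, 0.552 and 1.04 CPM in December, and 0.828, 1.99 and 1.92 CPM on January 3. It had 0.758, 0.755 and 0.257 CPM on January 15, 0.545, 0.369 and 1.16 CPM on February 12, and 0.0811, 0.526 and 0.777 CPM on March 12. Replicates 2 and 3 of January 3 stood above the other libraries, while replicate 1 was level with the highest of October 17. CALS_5F rose to 1.58 ± 0.651 CPM on January 3, against 0.499 ± 0.282 CPM on October 17 (edgeR, log2 fold change 1.56 ± 0.55 SE, adjusted p = 0.0256), and fell to 0.461 ± 0.352 CPM on March 12 (against January 3, -1.78 ± 0.59 SE, edgeR's adjusted p = 0.0134). Both calls depended on single libraries. The first did not survive leaving out replicate 1 (log2 fold change 1.32) or 3 (1.41) of October 17 or replicate 2 (1.35) or 3 (1.40) of January 3, and the second was lost without replicate 1 of March 12 (-1.25). Both were also lost without the 3 libraries of lowest mapping share (1.31 for the first, -1.55 for the second).

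Of the other callose synthase 5 members, CALS_5A stayed under 2-fold, with 6.41 ± 1.79 CPM on January 15 as its highest mean and 3.70 ± 1.23 CPM in December as its lowest. CALS_5E, CALS_5B and CALS_5G were not tested, with 9, 1 and 0 counts over the 18 libraries, as were CALS_1A and CALS_1C, with 15 and 2. A count of 0 allows up to 3 counts, which is 0.142 to 0.291 CPM depending on the library. At this depth expression of these 5 genes in the buds was not detectable or too low to compare.

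GSL_9 and GSL-like2, neighbours on chromosome 6, are paired with Arabidopsis GSL10 (CalS9), which is needed for pollen development. GSL-like2 was the steadiest member, with a highest date mean 1.2 times the lowest, 214 ± 23.9 CPM on March 12 being the lowest and 255 ± 23.4 CPM on January 3 the highest. GSL_9 ranged more widely, with 9.30 ± 0.514 CPM on February 12 and 17.9 ± 7.85 CPM in December (edgeR, log2 fold change -0.95 ± 0.33 SE, adjusted p = 0.0275). Replicate 2 of December (8.93 CPM) lay far under the others of its date (21.1 and 23.6 CPM), and without it this difference passed the 2-fold threshold (log2 fold change -1.26).

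GSL-like4 and GSL-like5, side by side on chromosome 4, are paired with Arabidopsis GSL1, and GSL-like7 with GSL5 (CalS12), the synthase of wound callose. GSL-like4 had the reverse of the common course, highest on March 12 at 44.4 ± 0.693 CPM and lowest on January 3 at 26.4 ± 2.18 CPM (edgeR, log2 fold change 0.75 ± 0.10 SE, adjusted p = 2.92e-06). GSL-like7 had its lowest mean on January 3 too, where it was 70.4 ± 7.55 CPM and October 17 gave 105 ± 4.91 CPM (log2 fold change -0.57 ± 0.14 SE, edgeR's adjusted p = 0.00228). GSL-like5 passed the adjusted p in 1 pair only, with 53.2 ± 6.495 CPM on January 15 against 70.3 ± 11.1 CPM in December.

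GSL_6, GSL_7A and GSL_7B are paired with Arabidopsis GSL11, and GSL_7A was called. GSL_7A (PAV03g0164971) had 1.75, 2.76 and 3.25 CPM on October 17, 3.99, 1.84 and 3.48 CPM in December, and 3.69, 2.78 and 4.89 CPM on January 3. It had 2.65, 2.08 and 3.00 CPM on January 15, 1.57, 1.11 and 1.36 CPM on February 12, and 1.62, 2.45 and 2.04 CPM on March 12. Every library of February 12 lay below every other library of this gene. GSL_7A fell to 1.35 ± 0.234 CPM on February 12, against 3.79 ± 1.06 CPM on January 3 (edgeR, log2 fold change -1.46 ± 0.32 SE, adjusted p = 9.80e-04) and 3.10 ± 1.12 CPM in December (-1.20 ± 0.32 SE, edgeR's adjusted p = 0.00560). The difference from December was lost without replicate 1 of December (-0.96) and without the 3 libraries of lowest mapping share (-0.88). That from January 3 held in every alternative. GSL_7B was lower on February 12 than on January 3 by nearly as much, at 6.73 ± 1.13 CPM on February 12 and 13.5 ± 2.79 CPM on January 3 (edgeR, log2 fold change -0.99 ± 0.22 SE, adjusted p = 0.00140), and GSL_6 by less (-0.57 ± 0.20 SE).

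Many members lie next to each other in the genome. By their gene numbers 24 of the 31 fall into 7 blocks of neighbouring gene models. The longest, on chromosome 3, holds 7 models in the order GSL_7C, GSL-like6, GSL_6, GSL_7B, CALS_5F, GSL_7A and CALS_1B, and 3 of the 7 called genes are in it. All but GSL_7C of this block had their highest mean on January 3. Whether neighbouring models are copies or pieces of 1 gene was not tested, and how reads shared by near-identical copies were counted is not given in the sources used here, so the split of counts within a block is uncertain and its members are not independent of each other.

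The steps between neighbouring dates held few calls. No member was called in December against October 17, on January 3 against December or on January 15 against January 3, by edgeR or DESeq2. There 7, 12 and 8 members passed an unadjusted p under 0.05, for which no share of all genes was computed. Of all genes 3.49% were called higher and 11.6% lower at the first of these steps. The shares called were 6.34% and 4.05% at the second and 2.91% and 1.49% at the third. The first step had 1 call without replicate 2 of October 17 or replicate 2 of December, and the third had 1 without replicate 1 of January 3 or replicate 2 of January 15. On February 12 against January 15 CALS_1B alone was lower, against 3.9% of all genes (7.1% were higher). Counting any member, 2 were lower without replicate 1 of January 15 and 0 without its replicate 3 or replicate 2 of February 12. The CALS_1B call itself was also lost without replicate 2 of January 15 or replicate 1 or 3 of February 12. On March 12 against February 12 GSL_3 alone was higher, against 14.7% of all genes (9.66% were lower), with 2 higher without replicate 1 of March 12 and 0 by DESeq2.

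Without the fold minimum, the December step gave by adjusted p 1 member higher, GSL-like1, and 4 lower, CALS_5C, GSL_8, GSL-like8 and GSL-like3 of chromosome 4, against 19.0% and 24.1% of all genes. The step to January 3 gave 7 higher and 3 lower (21.8% and 15.6% of all genes), and GSL-like1, GSL-like4 and GSL-like7 were the lower ones. January 15 gave 2 higher, GSL-like4 and GSL-like8, and 4 lower (11.8% and 13.6% of all genes). February 12 gave 2 higher, GSL-like4 and GSL-like7, and 8 lower (20.1% and 19.9% of all genes). March 12 gave 4 higher, GSL-like1, GSL_3, GSL_8 and GSL-like3 of chromosome 4, and 4 lower, GSL-like8, GSL-like9, GSL_10C and GSL-like3 of chromosome 5 (28.8% and 26.8% of all genes).

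Across longer spans, January 3 against October 17 had CALS_1B and CALS_5F higher, 2 of 26 (7.69%) against 6.11% of all genes, while 11.6% of all genes were lower. That count was 1 without replicate 2 of January 3 and 0 without replicate 1 or 3 of October 17 or replicate 3 of January 3. Replicate 1 of October 17 is one of the libraries in which the family ran low, and the part of this in the calls was not tested beyond leaving it out. February 12 against December had CALS_1B, GSL_3 and GSL_7A lower, 3 of 26 (11.5%) against 5.27% of all genes (12.5% were higher), and 1 without replicate 1 of December. February 12 against October 17 had GSL_8 lower, against 10.8% of all genes (9.62% were higher), with 2 called without replicate 1 of October 17 and 3 without replicate 1 of February 12. March 12 against January 3 had CALS_5F and GSL_10C lower (7.69%), against 11.4% of all genes (18.8% were higher), with 6 called without replicate 2 of January 3 or replicate 2 of March 12, 4 without replicate 3 of March 12 and 1 without replicate 1 of March 12. These pairs share libraries, so their calls are not separate evidence.

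Without the fold minimum, the members higher and lower by adjusted p in these 4 pairs were 5 and 3 for January 3 against October 17 (25.1% and 24.1% of all genes), 2 and 10 for February 12 against December (24% and 22%), 1 and 9 for February 12 against October 17 (25.1% and 25.4%), and 2 and 16 for March 12 against January 3 (33.2% and 31.6%). GSL-like8 was the 1 member higher on February 12 against October 17, and GSL-like1 and GSL-like4 were the 2 higher on March 12 against January 3.

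The remaining pairs had no called member by either tool with all libraries in the fit. The shares of all genes given here are for calls and adjusted p, since none was computed for an unadjusted p. January 15 against October 17 had 7 members at an unadjusted p under 0.05 and, by adjusted p, 1 higher and 3 lower, where 6.37% of all genes were called higher and 10.6% lower (22.9% and 23.3% by adjusted p alone). January 15 against December had 9 at an unadjusted p and 3 higher and 3 lower by adjusted p, beside 8.35% and 4.02% of all genes called (20% and 15.8%). March 12 against December had 10 at an unadjusted p and 2 higher and 6 lower by adjusted p, beside 20% and 7.0% of all genes called (33.8% and 26.3%). March 12 against January 15 had 12 at an unadjusted p and 4 higher and 7 lower by adjusted p, beside 16.7% and 8.5% of all genes called (31.3% and 28.4%). Leaving out 1 library gave calls in 3 of these pairs. On March 12 against December GSL_9 was called lower without replicate 2 of December (log2 fold change -1.22) or replicate 2 (-1.17) or 3 (-1.04) of March 12, and GSL_10C without replicate 2 of December (-1.09) or replicate 2 of March 12 (-1.09). On March 12 against January 15 GSL_10C was called lower without replicate 2 of March 12 (-1.04), and on January 15 against October 17 GSL-like3 of chromosome 4 was called lower without replicate 3 of January 15 (-1.02).

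No callose synthase gene was called in endodormancy as a whole. The 4 endodormancy dates were averaged and set against the average of October 17 and March 12. The endodormancy average holds both January 3 and February 12, often a member's highest and lowest date, so changes between them cancel in part. GSL_7A, for example, had 3.79 CPM on January 3 and 1.35 CPM on February 12, with a log2 fold change of 0.13 here. Neither edgeR nor DESeq2 called a member, against 4.6% of all genes higher and 12.9% lower. An unadjusted p under 0.05 was reached by 12 members, for which no share of all genes was computed. By adjusted p alone 6 members were higher and 5 lower, against 29.9% and 32.8% of all genes. GSL_10C was the furthest of those that were higher (edgeR, log2 fold change 0.68 ± 0.15 SE, adjusted p = 6.44e-04), and GSL-like3 of chromosome 4 the furthest of those that were lower (-0.61). The median log2 fold change was 0.05 over members and -0.01 over all genes. The count was 1, CALS_5F, without replicate 2 of October 17 (log2 fold change 1.12) or without replicate 3 of March 12 (1.13). March 12 against October 17 had 0 calls by either tool as well, against 13.2% of all genes higher and 7.73% lower. In that pair 11 members passed an unadjusted p under 0.05, again with no share of all genes computed. By adjusted p alone GSL-like1 was higher there and 6 members were lower, against 28.4% and 25.1% of all genes.

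The summed level of all 31 genes was nearly flat. The sums per library averaged 1849 ± 65.6 CPM on October 17, 1870 ± 141 in December, 1898 ± 92.2 (January 3), 1840 ± 96.8 (January 15), 1796 ± 32.7 (February 12) and 1696 ± 206 on March 12. The highest date was 1.12 times the lowest, and without replicate 1 of March 12 (1459 CPM) the March 12 mean was 1815 CPM. GSL-like1, GSL-like9, GSL-like2, GSL-like8 and GSL-like3 of chromosome 5 made up 70.6% of the reads of the family, and none of these 5 was called. Yet GSL-like1 fell from 453 CPM in December to 262 CPM on February 12, while GSL-like8 rose from 147 to 279 CPM. Such opposite courses cancel in part, so a flat sum does not mean that each gene was flat. The sum also weighs genes by their reads, since CPM are not divided by gene length.

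**Figure D4:**
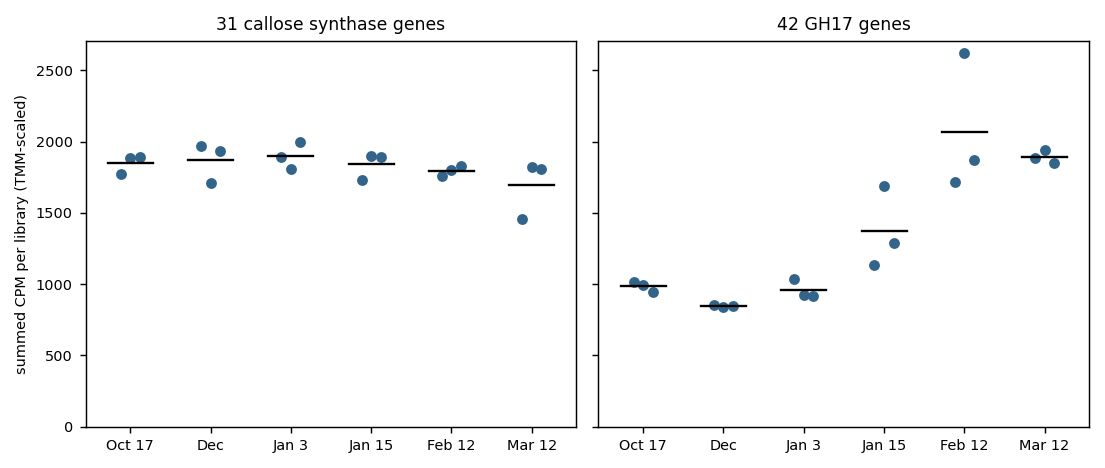
Summed CPM per library (points) and date mean (lines) over the 31 callose synthase genes (left) and the 42 GH17 genes (right), on the same axis from 0. The callose synthase means stay between 1696 and 1898 CPM, and the GH17 means between 846.3 and 2069 CPM.

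The other genes of callose metabolism and plasmodesmata were counted in the same way. Of the 33 GH17 genes tested (42 listed), whose enzymes can degrade callose, 28 (84.8%) were called in 1 or more date pairs. The corresponding counts were 5 of 5 tested (12 listed) for the BG genes, further β-1,3-glucanases, 4 of 5 (6 listed) for PDCB genes, whose proteins bind callose at plasmodesmata, and 5 of 7 (8 listed) for PDLP genes, whose proteins sit in plasmodesmata. The study's vascular list gave 12 of 18 (24 listed). For callose synthases the count was 7 of 26 and for all genes 54.3%, and whether the families differ was not tested.

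**Figure D5:**
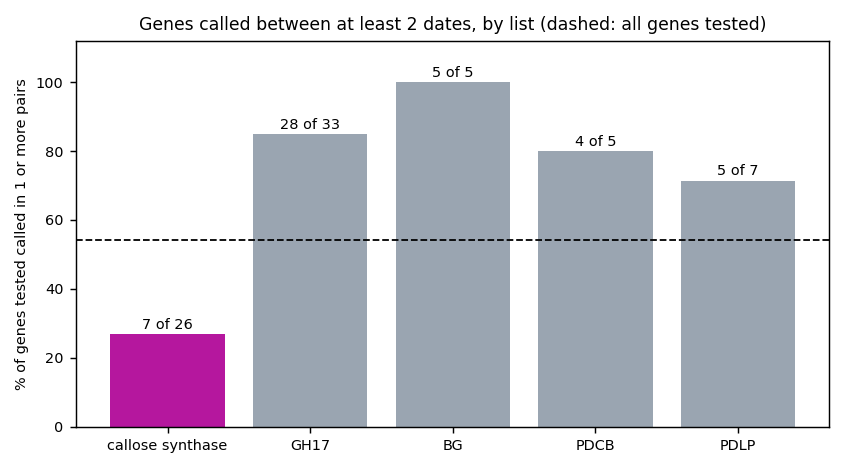
Percent of the tested genes of each list called in 1 or more of the 15 date pairs, with the counts above the bars and a dashed line at 54.3%, the percent of all 26,248 genes tested. Callose synthase genes stand at 26.9%, below the line, and the other lists above it.

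In endodormancy against October 17 and March 12, 1 GH17 gene of 33 rose and 15 fell, where 4.6% of all genes rose and 12.9% fell. GH17_22 (PAV04g0221611) rose (edgeR, log2 fold change 2.45 ± 0.24 SE, adjusted p = 5.21e-08), at 15.6 ± 6.65 CPM on October 17, 32.7 ± 8.76 in December, 285 ± 78.8 (January 3), 680 ± 315 (January 15), 1220 ± 471 (February 12) and 190 ± 31.5 CPM on March 12, so that December lay under March 12. GH17_9 (PAV07g0353161) fell (-3.20 ± 0.29 SE, edgeR's adjusted p = 1.94e-08), with 0.243 to 0.526 CPM as the means of the endodormancy dates, 0.888 ± 0.190 CPM on October 17 and 14.1 ± 6.79 CPM on March 12. March 12 thus stood far above the other dates, and October 17 was near the endodormancy dates. The summed GH17 level was 985 ± 35.0 CPM on October 17, 846.3 ± 7.01 in December, 959 ± 65.1 (January 3), 1371 ± 287 (January 15), 2069 ± 482 (February 12) and 1890 ± 46.3 on March 12. GH17_22 held 59.1% of the February 12 sum, and without it the sum was 845.5 CPM on February 12 and 1700 CPM on March 12.

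The BG, PDCB and PDLP genes gave 2 higher of 5, 4 lower of 5 and 3 lower of 7 in the same comparison, and the vascular list 2 lower of 18, beside the same 4.6% higher and 12.9% lower of all genes. BG_3C (PAV07g0328961) rose (edgeR, log2 fold change 2.91 ± 0.24 SE, adjusted p = 7.23e-09). It averaged 53.8 ± 7.15 CPM on October 17, 305 ± 67.3 in December, 623 ± 184 (January 3), 1660 ± 993 (January 15), 2820 ± 1180 (February 12) and 311 ± 45.6 CPM on March 12. December was thus level with March 12. BG_1A (PAV07g0328831) was called higher (1.01 ± 0.28 SE, edgeR's adjusted p = 0.00392) although its dates differed in direction. It averaged 0.838 ± 0.162 CPM on October 17, 0.177 ± 0.106 in December, 1.61 ± 0.540 (January 3), 7.22 ± 1.82 (January 15), 12.6 ± 3.84 (February 12) and 1.47 ± 0.269 CPM on March 12. PDCB5B (PAV04g0184851) fell (log2 fold change -4.24 ± 0.19 SE, edgeR's adjusted p = 2.03e-12), with 1.13 to 1.86 CPM as the mean of each endodormancy date, 1.50 ± 0.171 CPM on October 17 and 467 ± 71.9 CPM on March 12, so that October 17 was level with endodormancy and March 12 was not. PDCB3C fell (-1.95), likewise with its highest mean on March 12 (6.00 ± 2.37 CPM, and 1.18 ± 0.175 CPM on October 17). PDLP6B (-1.99) and PDLP6A (-1.90) fell too, with their highest means on October 17. The PDLP6 genes were low at the 4 endodormancy dates against both dates around them, with PDLP6B at 1.27 to 2.39 CPM against 7.36 ± 0.925 CPM on October 17 and 7.03 ± 1.31 CPM on March 12.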

How the data were processed

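RNA of flower buds was sequenced by the authors as stranded mRNA libraries. Per the labels, reads were trimmed with Trimmomatic 0.36, aligned with STAR and counted per gene with HTSeq, and the deposited values are raw counts per gene of the 'Regina' annotation, with no normalization. Samples were grouped by the date in their labels, 3 per date. The members are the genes with a CALS or GSL name in the study's candidate table, and the GH17, BG, PDCB, PDLP and vascular lists come from it too. Members and lists were chosen with earlier results of these data known.

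Genes averaging 3 or more counts, with zeros in no more than 75% of libraries, were tested in R 4.3.3 with edgeR 4.0.16 (TMM, quasi-likelihood test, 1 mean per date, 12 residual degrees of freedom), for 15 pairs of dates and for endodormancy, with Benjamini-Hochberg adjustment over the 26,248 genes of each comparison. Calls needed an adjusted p under 0.05 and over 2-fold. The standard error is the log2 fold change divided by the square root of F. In data simulated for March 12 against February 12 (26,132 genes), 94 of 100 genes changed 3-fold and 100 of 100 changed 6-fold were recovered, with 10 false calls among 25,932 others. The changed genes were drawn from the better counted genes, and all genes were given the same fixed spread. Changes near 2-fold were not simulated. These rates therefore do not carry over to members with few counts or to calls near the threshold. Tables and figures were made with Python 3.11.15, pandas 2.3.3 and matplotlib 3.10.9.

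Every member is accounted for by name, with values in every library for those called in a pair. Other genes are the 2 per list with the largest called change in endodormancy. The 30 alternatives were DESeq2 1.42.0 as test or for size factors, upper quartile normalization, other filters (filterByExpr, a mean count of at least 10, none), a replicate block, adjusted p alone, joint adjustment over pairs, fits on the compared dates alone, and leaving out each library, the December libraries or the 3 of lowest mapping share. Adjusted p alone only drops the fold minimum, so it cannot lose a call. Leaving out a library of a date not compared barely moves a fold change. Replicates of a date differed beyond counting noise (chi-square per degree of freedom 1.85 to 22.4). Promoter and protein sequences were not used here.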

Additional observations from a re-analysis of the deposited data

How the results depend on the processing

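The number of callose synthase genes called in at least 1 pair stayed between 6 and 8 outside the leave-one-out fits, except by adjusted p alone (24), and between 7 and 9 when each library was left out, with all 7 genes kept each time. None of the 14 called log2 fold changes turned its sign in the alternatives run. Calls of CALS_5F, CALS_1B and GSL_3 were those lost most often, and differences near 1 CPM are limited by depth.

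By adjusted p alone, the members higher and lower numbered 1 and 4 in December against October 17, 7 and 3 on January 3 against December, 2 and 4 on January 15 against January 3, 2 and 8 on February 12 against January 15, and 4 and 4 on March 12 against February 12. They numbered 1 and 6 on March 12 against October 17, 5 and 3 on January 3 against October 17, 1 and 9 on February 12 against October 17, 2 and 10 on February 12 against December, 3 and 15 on February 12 against January 3, 2 and 16 on March 12 against January 3, and 6 and 5 in endodormancy.

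The GSL_3 call of March 12 against February 12 fell to a count of 0 with the DESeq2 test, DESeq2 size factors, upper quartile normalization, a mean count of at least 10, no filter, the replicate block (log2 fold change 0.999), the compared dates alone and the December libraries left out. Joint adjustment gave 1 lower on January 15 against January 3, and filterByExpr and no filter gave 2 lower on February 12 against January 15. Without the 3 libraries of lowest mapping share, 1 member was higher on January 3 against October 17, 1 lower on February 12 against December and 4 lower on March 12 against January 3. The fit on the compared dates alone left 2 of the 3 calls of February 12 against December, without CALS_1B (-1.16). The cause of these changes was not tested.

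With each library left out, the counts ranged from 0 to 3 higher on January 3 against October 17, 0 to 2 higher on March 12 against February 12, 0 to 2 lower on February 12 against January 15, 1 to 3 lower on February 12 against October 17, 1 to 4 lower and 0 to 1 higher on February 12 against December, 4 to 7 lower on February 12 against January 3 and 1 to 6 lower on March 12 against January 3. They ranged from 0 to 1 higher in December against October 17, 0 to 1 lower on January 15 against January 3, 0 to 1 higher in endodormancy, 0 to 2 lower on March 12 against December, and 0 to 1 lower on March 12 against January 15 and on January 15 against October 17.

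Replicate numbers left little trace of a pairing: of 45 library pairs with the same number on different dates, 7 had deviations correlated over 0.1 (median 0.00729). The labels do not say whether a number marks the same tree on each date, and these correlations cannot decide it. With the replicate block 7 members were called in at least 1 pair, as without it. Another scaling moved the median of all genes by at most 0.055 (log2).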
